A study of Mus musculus with 1152 samples.

Results

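In microglia of 5xFAD mice, the glucocorticoid-induced gene Tsc22d3 had a lower mean level than in WT microglia in cortex, hippocampus and cerebellum, and the glucocorticoid receptor gene Nr3c1 had a lower mean level in cortex and hippocampus. Sgk1, another glucocorticoid-induced gene, had a higher mean level in all 3 regions. Mouse values did not overlap between 5xFAD and WT cortex for Tsc22d3, Nr3c1, Sgk1 and the sparsely read Klf9, 4 of the 7 genes described. The same held for 5.71% of all genes, and the cortex groups of the genotypes lay on different plates. None of these 4 genes passed the edgeR test across all genes there, whereas DESeq2 called Sgk1, against 2.72% of all genes. The 7 genes described are Nr3c1 and the glucocorticoid-induced genes Tsc22d3, Sgk1, Fkbp5, Per1, Klf9 and Dusp1, 7 of 48587 genes in the table, and they were taken by name. The set was chosen by results of the same cells, above all the lower mean CPM of Tsc22d3 in 5xFAD hippocampus, so the 5xFAD against WT difference in hippocampus is given as a description without a test for all members.

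The cells were microglia, the macrophages that live in brain tissue, and each was FACS-sorted into its own well. Libraries followed Smart-seq2, which covers whole transcripts and carries no molecular identifiers. 5xFAD mice are a transgenic line that expresses its transgenes in neurons and forms amyloid plaques; the labels give strain C57BL/6J for 5xFAD and WT mice alike, and their age and sex were not stated. The 5xFAD groups held 183 cells of 4 mice in cortex, 154 cells of 3 mice in hippocampus and 193 cells of 3 mice in cerebellum, and the WT groups held 167 cells in cortex, 182 in hippocampus and 162 in cerebellum, of 4 mice each. The regions came from the same mice, per the series, and the labels name no steroid or other treatment of any group.

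Glucocorticoids, corticosterone in mice, enter cells and bind the receptor encoded by Nr3c1, which chaperones hold in the cytoplasm. The bound receptor moves to the nucleus, where it raises transcription of some genes through glucocorticoid response elements and restrains inflammatory transcription factors at others. Microglia are among the brain cells that express this receptor, and Tsc22d3, Fkbp5, Sgk1, Per1, Klf9 and Dusp1 are widely used as readouts of its activity, although several of them also answer to other signals such as the circadian clock, growth factors or cell stress.

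The reads of a mouse's cells from 1 region were added up, and the 22 sums held 35 to 72 cells and between 5696201 and 26669220 reads. Levels below are CPM, the reads of a gene after scaling each sum for its size. Median depth per cell was higher in 5xFAD than in WT cells of each region: 256681 against 198492 reads in cortex, 328896 against 235875 in hippocampus and 343580 against 250051.5 in cerebellum. All 10 microglia marker genes were read in every group, and their summed level was 62591 to 66101 CPM in 5xFAD cortex against 68197 to 72493 CPM in WT cortex, 50848 to 56195 CPM in 5xFAD hippocampus against 70802 to 76622 CPM in WT hippocampus, and 55928 to 58137 CPM in 5xFAD cerebellum against 50119 to 58246 CPM in WT cerebellum. The part of this lower marker level in the members' differences was not tested. Wells with at least 3 border macrophage markers numbered 13 of 193 in 5xFAD cerebellum and 11 of 162 in WT cerebellum, and 0 or 1 elsewhere, and in 5xFAD cerebellum 5 wells carried at least 3 neutrophil and 4 wells at least 3 monocyte markers, against 0 in every other group. The summed neutrophil markers reached 15401 CPM in 1 mouse of 5xFAD cerebellum, against a group median of 626 CPM. 5xFAD hippocampus and 5xFAD cerebellum lay together on one plate, 5xFAD cortex and WT cerebellum on another, and both WT cortex and WT hippocampus on the third. Within every region, plate thus differed with genotype, and the effects of plate and genotype cannot be told apart. The 12 blank wells held 0 reads of the members, apart from 1 read of Sgk1 in 1 well.

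Promoter windows of 2 members, Sgk1 and Tsc22d3, are shown, each picked because it holds all or part of a glucocorticoid response element. The windows hold 300 bases around a RefSeq transcript start (GRCm38.p6), most of them upstream of it. 6 of the 7 members had windows, 14 in all, and Nr3c1 had none. The search covered both strands for the single arm of the glucocorticoid response element, AGAACA, for the full element, in which this arm is followed after any 3 bases by its reverse complement, and for the E-box CACGTG, which clock factors bind. The full element was present in 3 of 32851 windows of all genes (0.009132%), and 1 of these 3 belongs to Sgk1. The single arm was present in 18.97% of all windows, and in 4 of the 14 member windows, 3 of Sgk1 and 1 of Tsc22d3. An E-box was present in 7.15% of all windows and in 1 window each of Per1, Fkbp5, Dusp1 and Sgk1. Capitals mark the full element in Sgk1 (plus strand, chr10:21993640-21993939, starting at position -189 from the transcript start) and the single arm in Tsc22d3 (minus strand, chrX:140600473-140600772, starting at position -185).
Sgk1: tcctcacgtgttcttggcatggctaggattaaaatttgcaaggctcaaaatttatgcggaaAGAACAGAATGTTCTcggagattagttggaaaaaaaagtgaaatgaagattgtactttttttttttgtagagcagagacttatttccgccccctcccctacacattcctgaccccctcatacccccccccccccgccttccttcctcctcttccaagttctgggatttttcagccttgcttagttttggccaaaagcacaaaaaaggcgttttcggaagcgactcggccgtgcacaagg
Tsc22d3: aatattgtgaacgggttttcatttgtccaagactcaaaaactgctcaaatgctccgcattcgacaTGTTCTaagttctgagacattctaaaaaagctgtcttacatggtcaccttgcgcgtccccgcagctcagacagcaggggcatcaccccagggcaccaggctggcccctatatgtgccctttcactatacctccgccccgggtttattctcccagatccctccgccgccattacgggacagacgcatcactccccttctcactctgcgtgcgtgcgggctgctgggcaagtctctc
In the Sgk1 window, the full element contains 2 arms, and a further arm and an E-box overlap near its upstream end. A match of letters is a description of sequence and not a site of receptor binding.

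The first comparison asked how the members differed between 5xFAD and WT microglia within each region. In cortex, 0 of the 7 members passed an adjusted p of 0.05 (edgeR), against 0.294% of the 17358 genes tested. 2 had an unadjusted p under the threshold, Sgk1 and Klf9, against 11.7% of all genes. DESeq2 called 1, Sgk1, against 2.72% of all genes. Mouse values did not overlap between 5xFAD and WT cortex for 4 of the 7, Tsc22d3, Nr3c1, Sgk1 and Klf9, against 5.71% of all genes. In cerebellum, 0 of the 7 passed (edgeR), against 0.0461% of all genes. There, 1, Sgk1, had an unadjusted p under the threshold, against 8.92% of all genes, and DESeq2 called 0, against 1.87%. Mouse values were free of overlap for 0 of the 7, against 6.56% of all genes. In hippocampus, the contrast in which Tsc22d3 was known to be lower, 1 of the 7 passed, Tsc22d3 itself, against 1.01% of all genes, and mouse values did not overlap for 2, Tsc22d3 and Sgk1, against 11% of all genes; nothing is read from these counts.

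**Figure D1:**
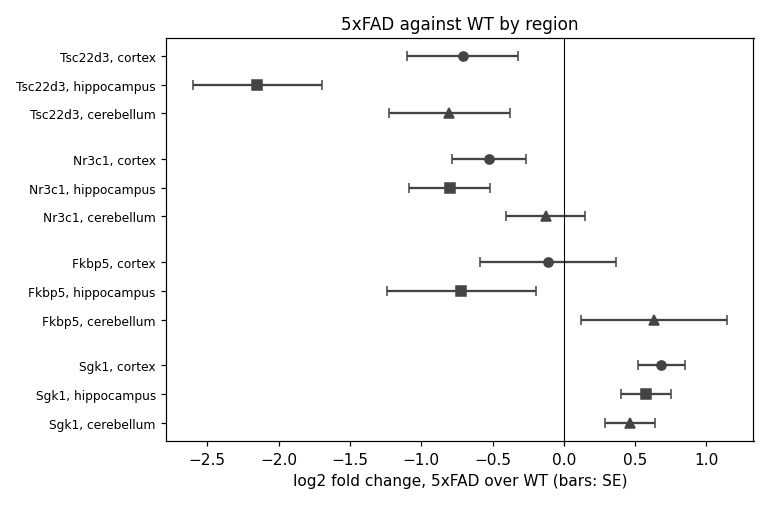
Log2 fold change of 5xFAD over WT (horizontal axis) for the 4 members with enough reads, by region; bars are standard errors from the fit over all 22 sums. Sgk1 lies above 0 and Tsc22d3 below 0 in all 3 regions, with Tsc22d3 farthest from 0 in hippocampus at -2.15.

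Nr3c1 (chromosome 18, 39410545 to 39519421, minus strand; GRCm38, GENCODE M21) encodes the glucocorticoid receptor, and its transcript was read in about as many cells as not. The level in 5xFAD cortex was 155, 155, 150 and 173 CPM in the 4 mice, against 245, 237, 194 and 234 CPM in WT cortex. Every 5xFAD cortex was lower than every WT cortex. The log2 fold change was -0.53 ± 0.26 (SE; adjusted p = 0.433, edgeR). In hippocampus, Nr3c1 had 197, 114 and 128 CPM in 5xFAD mice, against 217, 169, 326 and 308 CPM in WT mice. One 5xFAD mouse lay above the lowest WT mouse, and the log2 fold change was -0.80 ± 0.28. In cerebellum, the receptor transcript had 165, 291 and 142 CPM in 5xFAD mice, against 165, 206, 317 and 183 CPM in WT mice. These ranges overlapped widely, with a log2 fold change of -0.13 ± 0.28 (adjusted p = 0.985, edgeR). Without the wells that carried markers of other cell types, the cerebellar means were 188 ± 57.8 CPM in 5xFAD (SD, n = 3) and 187 ± 92.7 CPM in WT (SD, n = 4). The 6 group means ran from 255 ± 74.4 CPM in WT hippocampus through 227 ± 22.8 CPM in WT cortex, 218 ± 68.0 CPM in WT cerebellum, 200 ± 80.4 CPM in 5xFAD cerebellum and 158 ± 10.0 CPM in 5xFAD cortex to 146 ± 44.2 CPM in 5xFAD hippocampus (SD). All neighbours in this order overlapped.

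**Figure D2:**
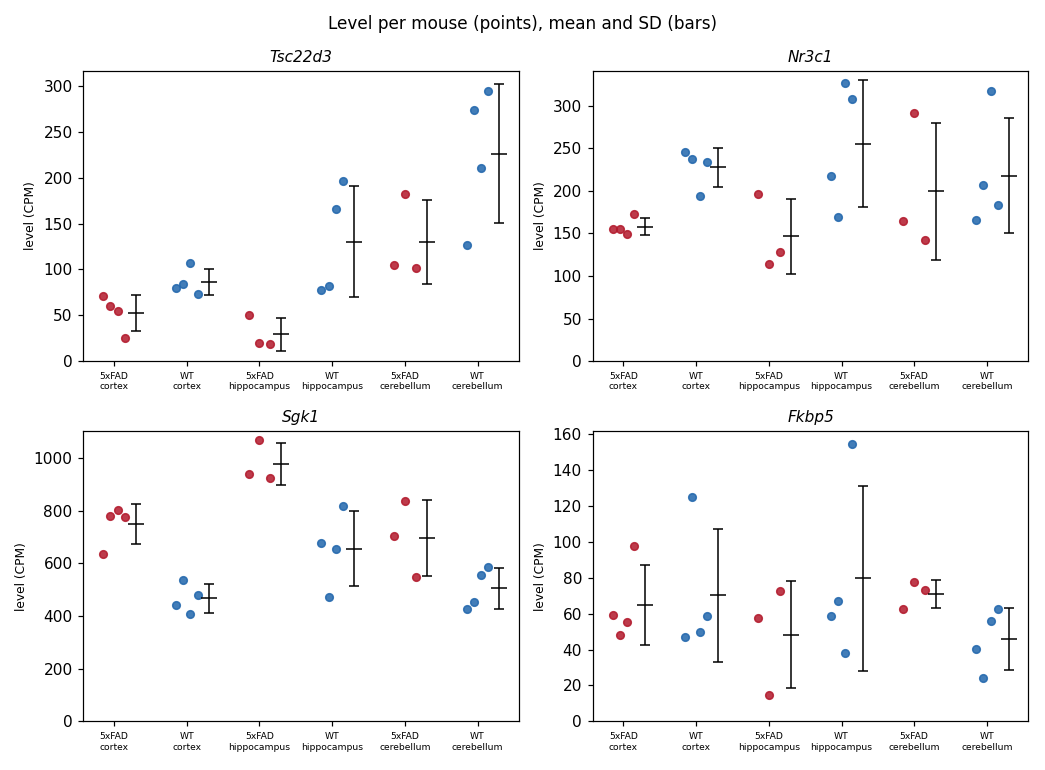
Level per mouse in CPM (vertical axes, linear, from 0) of Tsc22d3, Nr3c1, Sgk1 and Fkbp5 in the 6 groups; each point is 1 mouse, red for 5xFAD and blue for WT, and the bars are mean and SD. In cortex, Tsc22d3 and Nr3c1 lie lower and Sgk1 lies higher in every 5xFAD mouse than in every WT mouse, whereas Fkbp5 overlaps between genotypes in all 3 regions.

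Tsc22d3 (chromosome X, 140539528 to 140600659, minus strand) encodes GILZ, a leucine zipper protein that glucocorticoids induce and that restrains NF-kappaB and AP-1. In cortex, its level was 70.6, 60.0, 55.0 and 24.9 CPM in 5xFAD mice, against 80.1, 83.8, 107 and 73.6 CPM in WT mice. No 5xFAD cortex reached the lowest WT cortex, but the gap between them was small. The log2 fold change was -0.71 ± 0.39 (adjusted p = 0.486, edgeR). In hippocampus, Tsc22d3 had 49.9, 19.6 and 18.7 CPM in 5xFAD mice, against 77.5, 81.5, 166 and 196 CPM in WT mice. The WT mice fell into a lower and a higher pair, both above all 5xFAD mice, and the log2 fold change was -2.15 ± 0.45. In cerebellum, the gene had 105, 182 and 102 CPM in 5xFAD mice, against 126, 274, 210.04 and 295 CPM in WT mice. The groups overlapped through 1 WT mouse at 126 CPM and 1 5xFAD mouse at 182 CPM, and the log2 fold change was -0.80 ± 0.43 (adjusted p = 0.566, edgeR). Without wells carrying other cell types' markers, mean cerebellar Tsc22d3 was 114 ± 50.9 CPM in 5xFAD (SD, n = 3) and 215 ± 80.5 CPM in WT (SD, n = 4). Over all cells the group means were, in descending order, 226 ± 75.7 CPM in WT cerebellum, 130 ± 60.1 CPM in WT hippocampus, 130 ± 45.7 CPM in 5xFAD cerebellum, 86.1 ± 14.4 CPM in WT cortex, 52.6 ± 19.6 CPM in 5xFAD cortex and 29.4 ± 17.7 CPM in 5xFAD hippocampus (SD). Of these neighbours, only 5xFAD cortex and WT cortex did not overlap.

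Sgk1 (chromosome 10, 21882184 to 21999903, plus strand) encodes a serine/threonine kinase induced by glucocorticoids and by other signals, which acts on ion channels and FOXO factors. The level in cortex was 634, 780.0, 803 and 775 CPM in 5xFAD mice, against 443, 536, 406 and 481 CPM in WT mice. All 4 5xFAD cortices lay above all 4 WT cortices. The log2 fold change was 0.68 ± 0.16 (adjusted p = 0.0912, edgeR). DESeq2 gave an adjusted p of 0.00531 and the edgeR fit without a filter on low counts 0.0188; over all alternatives tried it ran from 0.00531 to 0.297. In hippocampus, Sgk1 had 938, 1068 and 924 CPM in 5xFAD mice, against 676, 471, 654 and 819 CPM in WT mice. These groups did not overlap either, with a log2 fold change of 0.58 ± 0.18. In cerebellum, Sgk1 had 703, 837 and 548 CPM in 5xFAD mice, against 426, 452, 556 and 586 CPM in WT mice. One 5xFAD mouse lay below 2 of the WT mice, and the log2 fold change was 0.46 ± 0.18 (adjusted p = 0.552, edgeR). The means descended from 977 ± 79.6 CPM in 5xFAD hippocampus through 748 ± 77.1 CPM in 5xFAD cortex, 696 ± 145 CPM in 5xFAD cerebellum, 655 ± 143 CPM in WT hippocampus and 505 ± 77.7 CPM in WT cerebellum to 466 ± 55.5 CPM in WT cortex (SD). Only 5xFAD hippocampus and 5xFAD cortex were neighbours without overlap.

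Fkbp5 (chromosome 17, 28399094 to 28517527, minus strand) encodes a co-chaperone that lowers the receptor's affinity for its ligand and closes a feedback loop on it. Its levels showed no common direction. In cortex, it had 59.1, 47.9, 55.1 and 97.4 CPM in 5xFAD mice, against 47.0, 125, 49.9 and 58.4 CPM in WT mice, and the log2 fold change was -0.11 ± 0.48 (adjusted p = 0.991, edgeR). The WT value of 125 CPM came from 1 mouse, and without that mouse the log2 fold change turned to 0.33. In hippocampus, Fkbp5 had 57.6, 14.9 and 72.5 CPM in 5xFAD mice, against 58.5, 67.0, 38.1 and 154 CPM in WT mice, with a log2 fold change of -0.72 ± 0.52. In cerebellum, it had 62.4, 77.3 and 72.8 CPM in 5xFAD mice, against 40.1, 24.2, 55.9 and 62.6 CPM in WT mice, with a log2 fold change of 0.63 ± 0.51 (adjusted p = 0.801, edgeR). The 6 group means ran from 79.5 ± 51.4 CPM in WT hippocampus to 45.7 ± 17.2 CPM in WT cerebellum (SD, n = 4 each), and Fkbp5 overlapped between genotypes in all 3 regions.

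The other members were read too sparsely for a fitted fold change to be informative. Per1 (chromosome 11, 69095217 to 69109960, plus strand), a circadian repressor that glucocorticoids also induce, ranged from 0.105 to 23.1 CPM over the 22 sums and averaged 10.6 ± 3.02 CPM in 5xFAD cerebellum (SD, n = 3) and 14.8 ± 10.2 CPM in WT cerebellum (SD, n = 4). In cortex and hippocampus its group means lay between 4.85 and 7.13 CPM. Klf9 (chromosome 19, 23141226 to 23168134, plus strand), a Krüppel-like transcription factor, had 0 reads in all 4 5xFAD cortices, against 20, 28, 7 and 22 reads in WT cortices. Counted in reads, with a floor of 3 counts over the group, its CPM was at least 37.5-fold lower. That bound treats reads as independent and does not cover the small number of cells that held them. Klf9 also had 0 reads in all 3 5xFAD hippocampi, against 10, 0, 46 and 1 reads in WT hippocampi, at least 19.6-fold lower by the same bound on reads. WT mouse 3 supplied 46 of these 57 reads, and without it the bound is 5.20-fold; leaving out each WT mouse in turn, the cortical bound ran from 32.8-fold to 45.0-fold. These reads came from few cells: 0 of 183 cells in 5xFAD cortex, which allows a share of up to 1.64%, against 5 of 167 cells in WT cortex (2.99%, 95% interval 0.979% to 6.85%, exact Clopper-Pearson), and 0 of 154 cells in 5xFAD hippocampus, which allows up to 1.95%, against 4 of 182 cells in WT hippocampus (2.20%, interval 0.602% to 5.53%). These bounds and intervals pool the cells of a group's mice and do not cover the spread between mice. The bound on the 5xFAD share lies inside the WT interval in both regions. By mouse, Klf9 was read in 1, 1, 1 and 2 cells of WT cortices and in 1, 0, 2 and 1 cells of WT hippocampi. Whether the share of Klf9 cells differed was not tested. In cerebellum, Klf9 was read in 1 cell of 5xFAD mice and in 2 cells of WT mice. That 5xFAD well carried markers of other cell types, and without such wells Klf9 was at 0 CPM in all 3 5xFAD mice. Dusp1 (chromosome 17, 26505590 to 26562128, minus strand), a phosphatase that switches off MAP kinases, ranged from 0 to 25.9 CPM and was read in 2 to 8 cells per group, and the single richest cell supplied 37.3% to 99.2% of a group's reads.

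**Figure D3:**
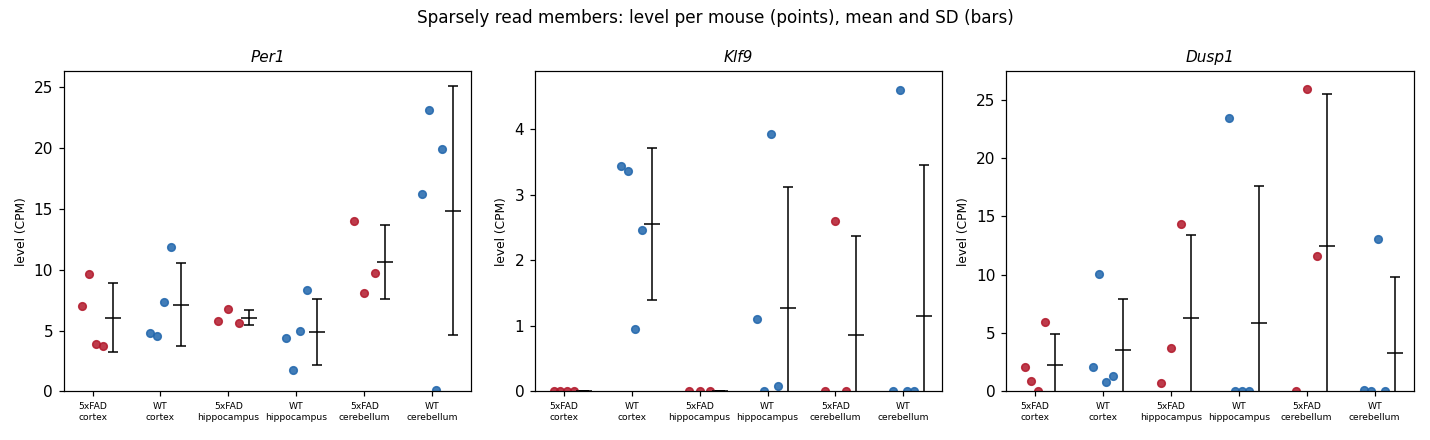
Level per mouse in CPM (vertical axes, linear, from 0) of Per1, Klf9 and Dusp1 in the 6 groups; each point is 1 mouse, red for 5xFAD and blue for WT, with mean and SD. Klf9 is at 0 in all 7 sums of 5xFAD cortex and hippocampus, and Dusp1 spans 0 to 25.9 CPM.

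Whether the genotype difference itself differed between regions was tested for cortex against cerebellum. 0 of the 7 members passed (edgeR), against 0.0807% of all genes. An unadjusted p under the threshold was reached by 1, Klf9, against 9.85% of all genes, and DESeq2 called 0, against 2.09%. All Klf9 reads of 5xFAD cerebellum came from 1 cell, in a well with markers of other cell types. The difference of log2 fold changes, cortex minus cerebellum, was 0.09 ± 0.57 for Tsc22d3 (adjusted p = 1.00, edgeR) and 0.22 ± 0.24 for Sgk1 (adjusted p = 0.870, edgeR). For Nr3c1 it was -0.40 ± 0.38 (adjusted p = 0.837, edgeR) and for Fkbp5 -0.74 ± 0.70 (adjusted p = 0.833, edgeR). Given without a test, the effect on Tsc22d3 in hippocampus minus that in cortex was -1.44 ± 0.58, and in hippocampus minus cerebellum -1.35 ± 0.60. For Sgk1, these differences were -0.11 ± 0.24 and 0.11 ± 0.25.

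Regions were then compared within a genotype. Tsc22d3 was higher in cerebellum than in cortex in each genotype, with no overlap of mice (1 of the 7 members in each, against 8.16% of all genes in 5xFAD and 4.64% in WT): by a log2 fold change of 1.30 ± 0.42 in 5xFAD (adjusted p = 0.605, edgeR) and of 1.39 ± 0.40 in WT (adjusted p = 0.177, edgeR). 5xFAD cerebellum lay on another plate than 5xFAD cortex, and WT cerebellum on another plate than WT cortex. DESeq2 gave the WT difference an adjusted p of 0.0150, and over all alternatives it ran from 0.0150 to 0.438. On the plate that 5xFAD hippocampus and cerebellum shared, Tsc22d3 was lower in hippocampus by a log2 fold change of -2.14 ± 0.47, and again no mice overlapped. Since the hippocampal 5xFAD values of Tsc22d3 chose the set, this difference is a description; mouse values of Sgk1 and Per1 did not overlap there either (3 of the 7 with Tsc22d3, against 13.1% of all genes). In WT, hippocampal Tsc22d3 lay between the other regions, with a log2 fold change of 0.60 ± 0.39 against cortex on the same plate and of -0.79 ± 0.39 against cerebellum. Sgk1 had its highest mean level in hippocampus in both genotypes, without overlap against 5xFAD cortex (1 of the 7, against 8.08% of all genes). Its log2 fold change against cortex was 0.38 ± 0.18 in 5xFAD (adjusted p = 0.594, edgeR) and 0.49 ± 0.16 in WT (adjusted p = 0.474, edgeR), and against cerebellum 0.49 ± 0.19 in 5xFAD (adjusted p = 0.626, edgeR) and 0.38 ± 0.16 in WT (adjusted p = 0.340, edgeR). Among these Sgk1 pairs, 5xFAD hippocampus lay on another plate than 5xFAD cortex, and WT hippocampus on another plate than WT cerebellum. The fits held no term for the mouse, since no label says that replicate numbers mark the mouse across regions. For Sgk1 in 5xFAD hippocampus against cerebellum, a block on the replicate number gave 0.60 (adjusted p = 0.0073, limma voom). Thinned cells gave 0.26 for this pair (adjusted p = 0.955, edgeR). Nr3c1 and Fkbp5 overlapped in all 6 regional comparisons. 0 of the 7 members passed in any of the 6 (edgeR). The background of calls was 0.0346% for hippocampus against cortex, 0.0576% for cerebellum against cortex and 0.219% for hippocampus against cerebellum in 5xFAD, and 0%, 0.277% and 0.374% for the same pairs in WT. In the same order of pairs, the members with an unadjusted p under the threshold were 1 (Sgk1), 2 (Tsc22d3 and Klf9) and, Tsc22d3 left aside, 2 (Sgk1 and Klf9) in 5xFAD. Over all genes, the shares in 5xFAD were 8.32%, 8.19% and 7.79%. In WT, the members were 1 (Sgk1), 1 (Tsc22d3) and 1 (Sgk1), against 10.5%, 12% and 13.7% of all genes. In both 5xFAD pairs with Klf9, all Klf9 reads came from 1 cell of 5xFAD cerebellum, in a well with markers of other cell types. DESeq2 called Tsc22d3 for cerebellum against cortex in WT and, Tsc22d3 in comparisons with hippocampus left aside, no other member. For the same pairs, DESeq2 called 1.4%, 1.5% and 2.01% of all genes in 5xFAD and 1.73%, 3.16% and 4.09% in WT.

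The level of a sum combines the share of cells in which a gene was read with its level in those cells. In cortex, 17.5% of 5xFAD cells against 23.4% of WT cells had a read of Tsc22d3, and shares were 11.7% against 31.9% in hippocampus and 28.5% against 39.5% in cerebellum. Per mouse, the hippocampal shares were 14%, 8.62% and 13.04% in 5xFAD, against 19.6%, 26.7%, 38.3% and 43.2% in WT, and these did not overlap. Since the level of Tsc22d3 in these same cells chose the set, the hippocampal gap is a description only. The median level among cells with a read was 302 against 353 CPM in cortex, 218 against 341 CPM in hippocampus and 446 against 535 CPM in cerebellum, again 5xFAD against WT. For Tsc22d3, the share of cells with a read and the median CPM in those cells were both lower in 5xFAD in each region. Medians here and below pool the cells of a group's mice and were taken before thinning. The part of depth in them was not tested. The shares differed in the direction opposite to depth, and they were also taken after thinning cells to 50000 reads, with shallower cells left out. This kept 172 of 183 cells in 5xFAD against 133 of 167 in WT cortex, 135 of 154 against 177 of 182 in hippocampus and 187 of 193 against 137 of 162 in cerebellum, and the shares were 16.9% against 24.1%, 11.9% against 28.2% and 27.8% against 40.9%. Nr3c1 behaved otherwise in cortex. There, 50.8% of 5xFAD cells had a read against 50.3% in WT, and the median level among them was 253 against 373 CPM. In hippocampus, the receptor was read in 46.8% against 60.4% of cells at a median of 234 against 403 CPM, and in cerebellum in 47.7% against 47.5% at 359 against 311 CPM.

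**Figure D4:**
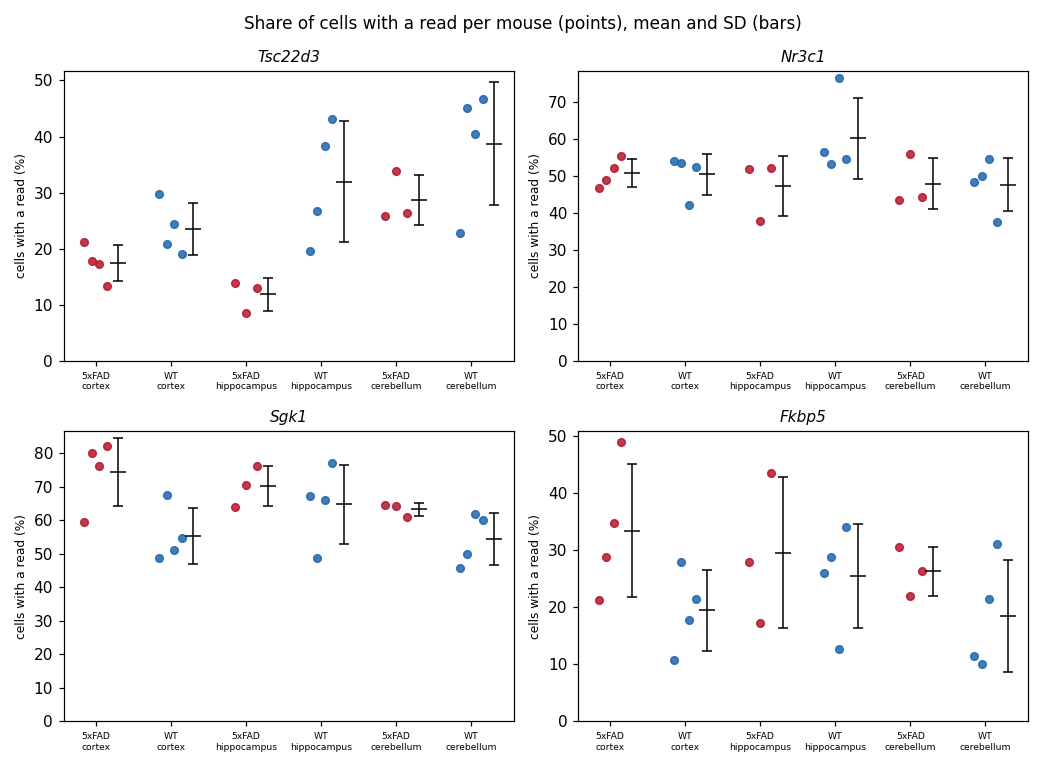
Percent of cells with at least 1 read (vertical axes, linear, from 0) of Tsc22d3, Nr3c1, Sgk1 and Fkbp5; each point is 1 mouse, red for 5xFAD and blue for WT, with mean and SD. For Tsc22d3, the 3 hippocampal 5xFAD mice, at 8.62% to 14%, lie below all 4 WT mice, at 19.6% to 43.2%, while Nr3c1 shares overlap in cortex and cerebellum. The hippocampal Tsc22d3 gap is a description, since the level of this gene in the same cells chose the set.

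Sgk1 was the most widely read member, with a cortical share of 74.3% in 5xFAD against 55.7% in WT, 70.1% against 64.8% in hippocampus and 63.2% against 54.9% in cerebellum. The median among cells with a read was 778 against 592 CPM in cortex, 766 against 797 CPM in hippocampus and 813 against 661 CPM in cerebellum. After thinning, the cortical share was 72.1% against 59.4%, the hippocampal 71.9% against 64.4% and the cerebellar 57.2% against 56.2%, so the cerebellar gap was narrower among the thinned cells. For Fkbp5, the share and the level ran in opposite directions in cortex: 33.3% of 5xFAD cells had a read against 19.8% of WT cells, at a median of 67.9 against 217 CPM. Of the cortical cells with an Fkbp5 read, 38 of 61 in 5xFAD and 24 of 33 in WT held at least 10 reads. The part of depth in the 2 medians was not tested. Thinned, the cortical Fkbp5 share was 29.7% against 21.1%. Mouse by mouse, the cortical Fkbp5 shares were 21.3%, 28.9%, 34.8% and 48.9% in 5xFAD and 10.8%, 27.9%, 17.8% and 21.4% in WT, with overlap. Per1 was read in 10.4% to 15.6% of cells over the 6 groups.

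Within 5xFAD mice, cells were split by a panel of 8 disease-associated microglia genes (Cst7, Lpl, Clec7a, Itgax, Ch25h, Axl, Spp1 and Igf1), none of them a member. Panel-high cells had a read in at least 3 of the 8 and panel-null cells in none, so both classes come from the same mice and plates. In cortex, the 4 mice held 11, 16, 12 and 16 panel-high cells and 21, 14, 16 and 16 panel-null cells, with 15, 15, 18 and 13 cells between. Tsc22d3 had 46.2, 12.9, 16.5 and 16.5 CPM in panel-high cells, against 76.7, 109, 50.4 and 18.6 CPM in panel-null cells of the same mice. It was lower in the panel-high cells of 4 of 4 mice, with a log2 fold change of -1.37 ± 0.90 (adjusted p = 0.893, edgeR with mouse as a block). Nr3c1 moved one way in 2 mice and the other way in 2, at -0.21 ± 0.43 (adjusted p = 0.995, edgeR). Sgk1 had 867, 871, 1030.0 and 534 CPM in panel-high cells, against 622, 587, 604 and 707 CPM in panel-null cells, higher in 3 of 4 mice, at 0.36 ± 0.23 (adjusted p = 0.893, edgeR). In hippocampus, panel-null cells numbered 6, 10 and 6, against 27, 35 and 30 panel-high cells. Tsc22d3 there had 37.1, 18.02 and 27.4 CPM in panel-high cells, against 106, 44.3 and 0 CPM in panel-null cells, and so was lower in 2 of 3 mice, while the fitted log2 fold change was 0.13 ± 2.93 (adjusted p = 0.994, edgeR). Median depth in the 3 mice was 356501, 340527 and 316905.5 reads in panel-high cells, against 58874.5, 301119.5 and 105514 reads in panel-null cells, and its part in these values was not tested. Sgk1 differed by -0.01 ± 0.45 (adjusted p = 0.998, edgeR) and Nr3c1 by 0.21 ± 1.36 (adjusted p = 0.982, edgeR). Klf9 and Dusp1 fell below the filter on low counts. Of the 5 members tested, 0 passed in cortex, against 0.273% of genes, and 0 in hippocampus, against 0.416% (edgeR), and 0 had an unadjusted p under the threshold in either.

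**Figure D5:**
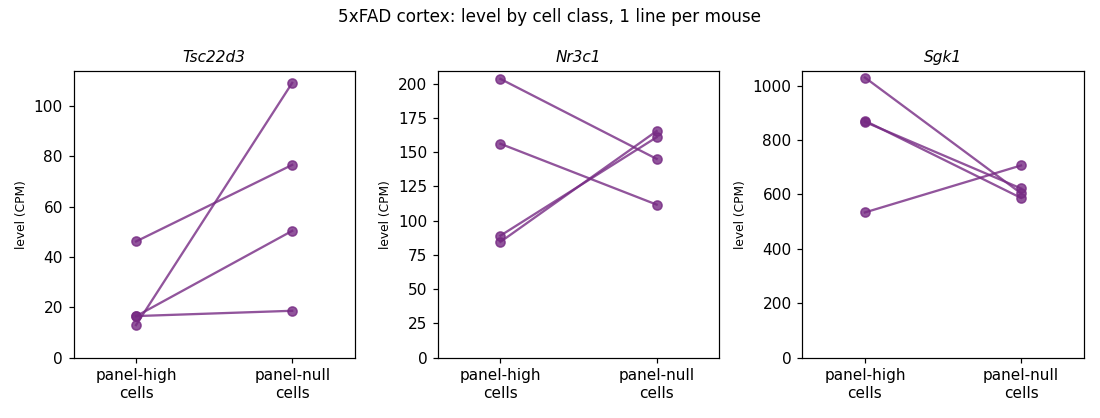
Level in CPM (vertical axes, linear, from 0) of Tsc22d3, Nr3c1 and Sgk1 in panel-high and panel-null cells of 5xFAD cortex; each line joins the 2 classes of 1 mouse. Tsc22d3 is lower in panel-high cells in 4 of 4 mice, and Sgk1 is higher in 3 of 4.

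Other genes of the pathway were read from 6 lists: further glucocorticoid-induced genes, receptor chaperones and co-regulators, steroid supply with the mineralocorticoid receptor, family relatives of the members, clock genes, and immediate early and dissociation genes, of which 91 genes were tested in all. In cortex, 0 of the 91 passed (edgeR), against 0.294% of all genes, and 20 had an unadjusted p under the threshold, against 11.7% of all genes. DESeq2 called 3 of them, Cd163, Egr1 and Egr2, and 473 genes in all. Cd163 is also 1 of the 8 border macrophage markers. Wells with at least 3 of these markers numbered 1 of 167 in WT cortex and 0 of 183 in 5xFAD cortex, and the part of that well in the call was not tested. Of the 23 further glucocorticoid-induced genes tested there, 7 had a positive log2 fold change, with a median of -0.24 against -0.09 over all genes. The 16 immediate early and dissociation genes had a median of 0.47 and the 14 clock genes one of 0.39 in cortex, where the 18 chaperones and co-regulators had 0.09, the 17 family relatives -0.21 and the 3 supply genes -0.84. In cerebellum, 0 of the 91 passed (edgeR), against 0.0461% of all genes, 7 had an unadjusted p under the threshold, against 8.92% of all genes, and DESeq2 called 0 of them and 324 genes in all; the further glucocorticoid-induced genes had a median of -0.04 against -0.01 over all genes. In hippocampus, given as a description, 3 of the 91 passed (edgeR), against 1.01% of all genes, and all 3 were lower in 5xFAD; 20 had an unadjusted p under the threshold, against 13.1% of all genes, and DESeq2 called 10 of them and 748 genes in all. Txnip, which encodes the thioredoxin-interacting protein, had 412 ± 54.5 CPM in 5xFAD hippocampus (SD, n = 3) and 894 ± 152 CPM in WT hippocampus (SD, n = 4), a log2 fold change of -1.12 ± 0.22. Nrip1, a nuclear receptor co-repressor, had 100.4 ± 19.03 CPM in 5xFAD and 273 ± 45.4 CPM in WT, at -1.44 ± 0.35. Rhob, an endosomal small GTPase, had 352 ± 73.5 CPM in 5xFAD and 673 ± 30.5 CPM in WT, at -0.94 ± 0.22. The median of the further glucocorticoid-induced genes in hippocampus was 0.05, against 0.10 over all genes, and 12 of the 23 were positive.

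Over the 22 sums, the genes whose log2 CPM followed Tsc22d3 most closely among 6343 ranked genes were Usf1, an E-box-binding factor (Pearson r = 0.835, Spearman rho = 0.754), Hn1 (0.815 and 0.710), Lpar6, a lysophosphatidic acid receptor (0.806 and 0.825), Txnip (0.762 and 0.698) and Smarca2, a chromatin remodelling ATPase (0.711 and 0.684). For Nr3c1 they included the ubiquitin ligase gene Rnf168 (0.743 and 0.723), the adaptor gene Dapp1 (0.719 and 0.712), the histone methyltransferase gene Suv420h1 (0.708 and 0.641) and the tubulin gene Tuba1a (0.705 and 0.774). These sums share groups, plates and, across regions, mice, and the values describe likeness only.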

How the data were processed

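Members and lists were chosen with earlier results of these data known. The deposited table holds raw read counts per gene and well; the submitters' processing notes name STAR 2.5.2b, featureCounts 1.5.1 and the build GRCm38. In 96 columns, those of plate columns 1 and 2, each count was a sum over several wells (wells 1 and 10 to 19, or 2 and 20 to 24, of a plate row); the other wells were subtracted, which left 0 negative values. Wells with at least 500 genes, 10000 gene reads and at most 20% mitochondrial reads were kept, 1041 of 1140. Sums per mouse and region were fitted with edgeR 4.0.16 (R 4.3.3; TMM, filterByExpr, quasi-likelihood, a term per group over all 22 sums), adjusted by Benjamini-Hochberg over 17358 genes; SE is the log2 fold change over the square root of F. CPM uses TMM-scaled library sizes. The fit was tested on simulated data. Reads carry no molecular identifiers, so intervals and floors cover counting error only. Named genes were the 7 members, up to 3 passing genes per list and comparison, and the 5 most like Tsc22d3 and Nr3c1 (mean log2 CPM of at least 4), of which 1 is not reported here. DESeq2 1.42.0, limma 3.58.1 (voom with the replicate number as a block) and other filters, normalizations and cell sets were the alternatives.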

Additional observations from a re-analysis of the deposited data

Results flagged for a closer look

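Within groups of 4 mice, 54 sets of member values were checked for 1 mouse far from the other 3 (Dixon's criterion at 95%), and 11 were marked. Where 3 mice stood at 0, any value above 0 in the remaining mouse is marked by construction. Levels and shares of the same cells were both checked, so the count is not set against a chance rate. Among levels, these were Fkbp5 in WT cortex (124.8 CPM in mouse 2, the others 47.0 to 58.4), Sgk1 in 5xFAD cortex (634.1 CPM in mouse 1, the others 775 to 803) and the sparsely read genes. Dusp1 stood at 13.1 CPM in WT cerebellum mouse 3, at 10.1 CPM in WT cortex mouse 2 and at 23.5 CPM in WT hippocampus mouse 1, where it was also read in 6.52% of cells and the others had 0. Klf9 stood at 4.599 CPM and 5.00% of cells in WT cerebellum mouse 2, against 0 in the others. Among shares of cells with a read, Nr3c1 was at 42.2% in WT cortex mouse 3 (the others 52.4% to 54.1%) and at 76.6% in WT hippocampus mouse 3 (the others 53.3% to 56.5%). Per1 was at 2.38% in WT cerebellum mouse 3, against 15.0% to 17.1% in the others.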

How the results depend on the processing

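The count of members passing the threshold moved under these alternatives. For 5xFAD against WT it was 1 in cortex by DESeq2 and without a filter on low counts (Sgk1 each time); in hippocampus it was 2 by DESeq2, 0 in a fit of the groups compared only, 0 with the columns as deposited, and 0 to 1 when leaving out 1 mouse (0 without 5xFAD mouse 2 or 3 or WT mouse 4). For cerebellum against cortex in WT it was 1 by DESeq2 and without a filter (Tsc22d3), and for hippocampus against cerebellum in 5xFAD 1 by DESeq2, without a filter, with a stricter filter and without 5xFAD hippocampus mouse 1 (Tsc22d3; 0 to 1 over left-out mice). Over all genes, counts ran over the alternatives from 25 to 473 in cortex (51 as reported), 113 to 748 in hippocampus (176) and 0 to 324 in cerebellum (8) for 5xFAD against WT. Between regions they ran from 0 to 243 (6), 1 to 261 (10) and 0 to 349 (38) in 5xFAD and 0 to 301 (0), 13 to 549 (48) and 13 to 710 (65) in WT, for hippocampus against cortex, cerebellum against cortex and hippocampus against cerebellum. For the cortex minus cerebellum difference they ran from 7 to 363 (14), and between panel classes from 11 to 56 (40) in hippocampus and 6 to 62 (25) in cortex. DESeq2 gave the highest count wherever it was run.

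Folds that turned were Fkbp5 in cortex, -0.37 to 0.33 over left-out mice, and Nr3c1 in cerebellum, 0.0013 without wells of other cell types and -0.47 to 0.13 over left-out mice. The Tsc22d3 difference of cortex minus cerebellum was -0.13 with columns as deposited, -0.0017 in thinned cells and -0.10 to 0.40 over left-out mice. Between panel classes, Nr3c1 in cortex ran from -0.46 to 0.047 over left-out mice; Sgk1 in hippocampus was 0.0037 with panel-high from at least 2 genes, 0.16 in thinned cells and -0.084 to 0.24 over left-out mice. The cause was not tested.

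Shares of cells were lower at 5 reads or more: Nr3c1 45.4% in 5xFAD and 42.6% in WT cortex, 41.0% in 5xFAD and 40.4% in WT cerebellum; Sgk1 63.8% in 5xFAD hippocampus and 57.1% in 5xFAD cerebellum (thinned 57.4%); Fkbp5 21.7% in 5xFAD cerebellum (thinned 21.4%). Per1 was at 9.89% in 5xFAD (thinned 10.4%) and 4.97% in WT hippocampus (thinned 5.65%) and 12.8% in 5xFAD cerebellum, and Dusp1 at 2.69% in 5xFAD hippocampus (thinned 3.03%) and 2.41% in WT cortex (thinned 2.10%).

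The replicate numbers left no shared deviation: over 21 same-numbered pairs, correlations ran from -0.0365 to 0.0339 with 0 over 0.1. With the replicate number as a block (limma voom, consensus correlation -0.00837), the count was 1 for hippocampus against cerebellum in 5xFAD (Sgk1, log2 fold change 0.60, adjusted p = 0.00729); in the other comparisons the block moved no count.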
